A study of Homo sapiens with 2 samples.

Results

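Markers of the adrenal gland were examined in RNA-Seq data of HEK293T cells, a human line set up from fetal kidney and transformed with adenovirus DNA and the SV40 large T antigen. They comprised 9 of the 57736 genes in the deposited tables, 5 of the adrenal cortex (NR5A1, STAR, CYP11A1, CYP17A1 and CYP21A2) and 4 of chromaffin cells (TH, DBH, PNMT and CHGA). They were chosen by symbol, through the Ensembl identifier of each row, as textbook markers, with earlier results of these data known. An adrenal origin has been proposed for the line, and the question was whether markers of either adrenal compartment could be seen at the RNA level. The samples formed 1 group of 2 replicates, labelled wild type HEK293T from kidney, untreated, grown in DMEM with serum to near confluency and sequenced as poly(A)+ RNA. With 1 group no condition could be compared with another, and nothing in the labels says that the replicates came from separate cultures.

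The adrenal gland joins a pair of tissues of different origin. The cortex, which arises from mesoderm, makes steroid hormones from cholesterol: STAR moves cholesterol into mitochondria, CYP11A1 cuts its side chain, and CYP17A1 and CYP21A2 carry out later hydroxylations on the way to cortisol. NR5A1, also called steroidogenic factor 1, is the nuclear receptor that switches on these genes. Chromaffin cells of the medulla arise from the neural crest and make catecholamines from tyrosine: TH performs the rate-limiting step, DBH makes noradrenaline and PNMT turns it into adrenaline, while CHGA (chromogranin A) is packed with them into dense core granules.

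None of the 9 markers was detected, where detected means a TPM (a share of all transcripts, corrected for transcript length) of at least 1 in both replicates. This threshold was passed by 63.7% of 19391 protein-coding genes. Of the markers, 6 had an estimated count above 0 in both replicates, although that of CYP21A2 in replicate 2 was 0.71, less than 1 read. The other 3 (CYP11A1, TH and DBH) had 0 counts in both replicates, as did 15.8% of protein-coding genes. The highest estimated count of any marker was 7, out of library totals of 10593491 counts in replicate 1 and 10104118 in replicate 2. All 9 together held 18.66 and 22.04 counts, which is 1.76 and 2.18 CPM (counts scaled to the library total). The median of the mean TPM was 0.09 over the markers and 6.5 over the protein-coding genes. In RNA of bulk cells, few cells with a transcript and little of it in every cell cannot be told apart.

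**Figure D1:**
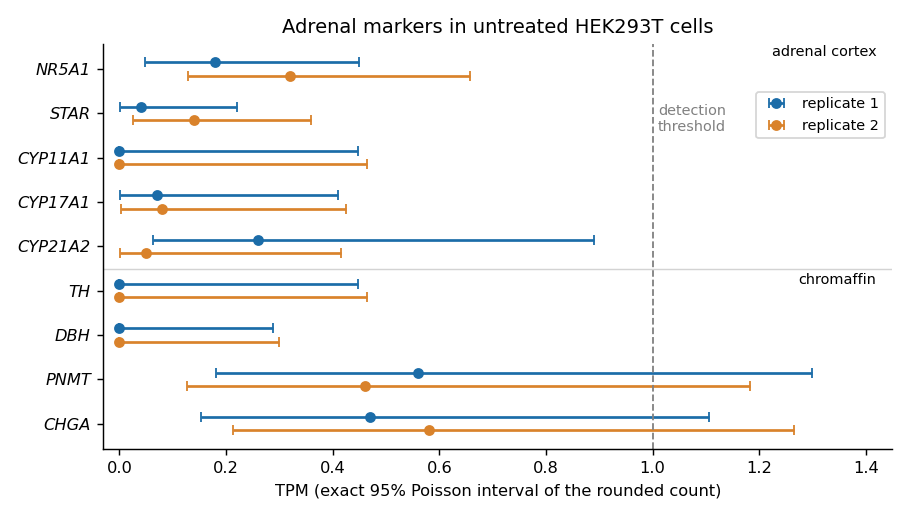
TPM of each adrenal marker (horizontal axis) in replicate 1 (blue) and replicate 2 (orange), with exact 95% Poisson intervals of the rounded counts as bars and the detection threshold of 1 TPM as a dashed line. All points lie below the threshold, and the bars of PNMT and CHGA cross it, with the highest upper bound at 1.3.

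Among the cortex markers the regulator had the highest mean TPM, although CYP21A2 was above it in replicate 1. NR5A1 (ENSG00000136931, chr9:127243515-127269699 of GRCh37, minus strand) had 4 counts in replicate 1 and 7 in replicate 2, a TPM of 0.18 and 0.32. Its mean TPM of 0.25 ± 0.099 (SD, n = 2) lay above that of 26.7% of protein-coding genes. Of the genes on either side, ADGRD2, at 2647 bp, was also low, with 2 and 1 counts and a mean TPM of 0.07, whereas NR6A1, also a nuclear receptor gene and 9855 bp away, had a mean TPM of 12.8.

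The genes of the steroid pathway itself were at or near 0. STAR (ENSG00000147465, chr8:38000218-38008510, minus strand) had 1.1 and 3.33 estimated counts and a TPM of 0.04 and 0.14. CYP11A1 (ENSG00000140459, chr15:74630100-74659987, minus strand), the enzyme of the first committed step, had 0 counts in both replicates. For a count of 0 the limit of 3 counts, a one-sided limit, is for this gene a TPM of 0.364 in replicate 1 and 0.378 in replicate 2, and the upper end of the two-sided 95% Poisson interval, as plotted, is 0.448 and 0.465. CYP17A1 (ENSG00000148795, chr10:104590288-104597229, minus strand), needed for cortisol and androgens, had 1 count in each replicate and a TPM of 0.07 and 0.08. CYP21A2 (ENSG00000231852, chr6:32006104-32009421, plus strand), the enzyme lost in most congenital adrenal hyperplasia, had 2.56 and 0.71 estimated counts and a TPM of 0.26 and 0.05. The summed TPM of the 5 cortex markers was 0.55 and 0.59. Intervals and limits given here cover counting error only, since PCR copies of a molecule are not independent.

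The estimated counts of STAR and CYP21A2 were not whole, so RSEM, which divides a read that fits several genes among them, had shared reads between these genes and others. The other 7 markers had whole counts. The gene for STAR overlaps ASH2L on the opposite strand by 1377 bp, and ASH2L, a subunit of histone methyltransferase complexes, had 560.9 and 508.67 counts. Of the different 50-base stretches in STAR transcripts, counted on both strands and at the read length of the libraries, 6.32% also occurred in transcripts of ASH2L. The length that the files give for STAR, 3448 nt in both replicates, is that of its transcript STAR-202, which keeps an intron. The sources used here do not say whether strand entered the counting, so within the overlap reads of STAR and of ASH2L cannot be told apart. CYP17A1 overlaps WBP1L on the opposite strand by 3986 bp, but its counts were whole. None of its 50-base stretches was found in WBP1L transcripts, although 9.49% occurred in transcripts of other genes. That share was 21.9% for CYP11A1 and 2.04% for DBH, which both had 0 counts.

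CYP21A2 has a nearly identical pseudogene copy, CYP21A1P, on the same chromosome at chr6:31973466-31976176. Over 2722 aligned positions 97.6% were identical, and the longest stretch without a difference was 329 bases, far longer than a 50-base read. Of the 50-base stretches of CYP21A2 transcripts, 34.1% occurred in CYP21A1P and 7.63% in TNXB, which overlaps the end of the gene on the opposite strand. The copy lacks 8 bases of coding exon 3 of CYP21A2, and this stretch is shown because reads across it can be assigned to 1 gene. The plus strand of GRCh37 is given at chr6:32006884-32006943 for CYP21A2 and at chr6:31974156-31974207 for CYP21A1P, and capitals mark bases that differ between the genes or are absent from the copy.
CYP21A2: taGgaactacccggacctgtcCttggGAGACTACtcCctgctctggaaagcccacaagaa
CYP21A1P: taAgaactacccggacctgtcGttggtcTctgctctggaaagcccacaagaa
CYP21A1P had 0 and 0.45 estimated counts, so neither the gene nor its copy exceeded 3 counts in a replicate. C4B, the next gene before CYP21A2, lies in the same duplicated block and had 3.4 and 12.98 estimated counts.

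Of the chromaffin markers, the enzymes TH and DBH had no reads. TH (ENSG00000180176, chr11:2185159-2193045, minus strand) had 0 counts in both replicates, with a 3-count limit of 0.363 and 0.377 TPM and Poisson upper bounds of 0.447 and 0.464. DBH (ENSG00000123454, chr9:136501485-136524451, plus strand) also had 0 counts in both, with a 3-count limit of 0.234 and 0.243 TPM and Poisson upper bounds of 0.288 and 0.299. INS, the gene next to TH, and DBH-AS1, a noncoding RNA gene within DBH on the opposite strand, had 0 counts as well.

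PNMT and CHGA had the highest levels of the 9 markers. PNMT (ENSG00000141744, chr17:37824234-37826728, plus strand) had 5 and 4 counts, a TPM of 0.56 and 0.46 and a mean of 0.51 ± 0.0707 (SD, n = 2). CHGA (ENSG00000100604, chr14:93389495-93401630, plus strand) had 5 and 6 counts, a TPM of 0.47 and 0.58 and a mean of 0.525 ± 0.0778 (SD, n = 2). These levels lay above those of 30.9% and 31.1% of protein-coding genes. None of the 50-base stretches of either gene occurred in another gene. The upper 95% Poisson bounds of PNMT, 1.3 and 1.18, and of CHGA, 1.11 and 1.27, exceeded 1. For these 2 genes a TPM at the detection threshold was therefore within counting error of each replicate taken alone. Over both replicates PNMT had 9 counts (95% Poisson interval 4.12 to 17.1) and CHGA 11 (5.49 to 19.7). These summed counts were not set against the threshold. For the other 7 markers every Poisson upper bound was below 1, the highest being 0.891 for CYP21A2 in replicate 1. The upper bounds of the TPM intervals that RSEM wrote, which surround the posterior mean described further on, were higher, from 1.03 for NR5A1 in replicate 1 to 3.94 for CYP21A2 in replicate 1 among 6 of these 7. Those of DBH were 0.568 and 0.578.

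By mean TPM the order was CHGA, PNMT, NR5A1, CYP21A2, STAR and CYP17A1, followed by CYP11A1, DBH and TH at 0. The replicate values of PNMT lay above those of NR5A1, and those of CYP17A1 above those of CYP11A1. For all other neighbours in this order the replicate values overlapped or were equal. The Poisson intervals overlapped in each replicate for every pair of neighbours, so no pair was told apart by these intervals. Overlap of intervals is not a test, and differences between neighbours were not tested. With 1 condition and 2 samples no gene could be named for a pattern like that of a marker.

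The replicates were also compared gene by gene. Over the 17920 genes whose counts summed to 10 or more, an exact two-sided binomial test with Benjamini-Hochberg adjustment called 3.88% different between the libraries. The test took rounded estimated counts as if they were observed, so it leaves out the error from reads shared among genes. NR5A1 and CHGA were the markers with enough counts to be tested. NR5A1 had an exact binomial p of 0.376 (adjusted p = 0.822), and CHGA one of 0.769 (adjusted p = 0.991). Each had 11 counts in all, and neither was called.

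Promoter bases are shown for 3 markers that hold a motif tied to their known regulation. They come from RefSeq promoter entries of GRCh38.p14, which held 6 of the 9 markers, and were placed on GRCh37 by exact match. Bases within the annotated gene were left out, and capitals mark the motif, which was searched on both strands of the 250 bases before each start. NR5A1 binds AGGTCA and the longer AAGGTCA, which contains it. The first occurred before 12.1% of 35116 starts, CYP17A1 and CYP21A2 among them, and the second before 3.44%, CYP21A2 among them. The cyclic AMP response element TGACGTCA occurred before 1.65%, CHGA among them. The stretches lie at chr6:32005942-32006103 (plus strand), chr10:104597230-104597420 (minus strand) and chr14:93389245-93389494 (plus strand).
CYP21A2: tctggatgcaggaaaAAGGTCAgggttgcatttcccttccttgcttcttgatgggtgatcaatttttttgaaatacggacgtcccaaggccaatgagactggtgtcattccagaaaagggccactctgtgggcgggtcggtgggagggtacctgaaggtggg
CYP17A1: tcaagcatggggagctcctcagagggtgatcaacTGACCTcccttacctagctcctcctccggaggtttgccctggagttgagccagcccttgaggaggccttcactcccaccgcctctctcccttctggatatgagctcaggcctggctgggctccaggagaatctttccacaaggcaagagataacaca
CHGA: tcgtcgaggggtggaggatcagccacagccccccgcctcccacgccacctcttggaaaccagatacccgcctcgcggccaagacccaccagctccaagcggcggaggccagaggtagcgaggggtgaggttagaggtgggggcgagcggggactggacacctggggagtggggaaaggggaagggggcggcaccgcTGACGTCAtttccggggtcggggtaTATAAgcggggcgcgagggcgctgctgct
The CHGA stretch also holds TATAA in capitals, which occurred before 18.9% of starts, CYP11A1 and CYP21A2 among them. A match in letters is a description and does not show that a factor was bound.

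Genes that act around the cortex markers in steroid synthesis but serve other cell types too gave a different picture. All 13 were detected, against 63.7% of protein-coding genes, with a median of the mean TPM of 38.2, against 6.5. Among those that supply cholesterol, the lipoprotein receptor SCARB1 had a TPM of 66.83 and 61.01 and the late endosomal carrier NPC1 52.72 and 46.96. Of the electron donors, FDX1 and FDXR, which serve mitochondrial P450 enzymes such as CYP11A1, had 8.49 and 9.93 and 10.38 and 8.11, and POR, which serves CYP17A1 and CYP21A2, had 45.24 and 42.3. STARD3, a relative of STAR on late endosomes, had 22.96 and 19.17. The libraries held RNA of the redox partners with few or no reads of the P450 enzymes that they serve in the adrenal cortex.

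**Figure D2:**
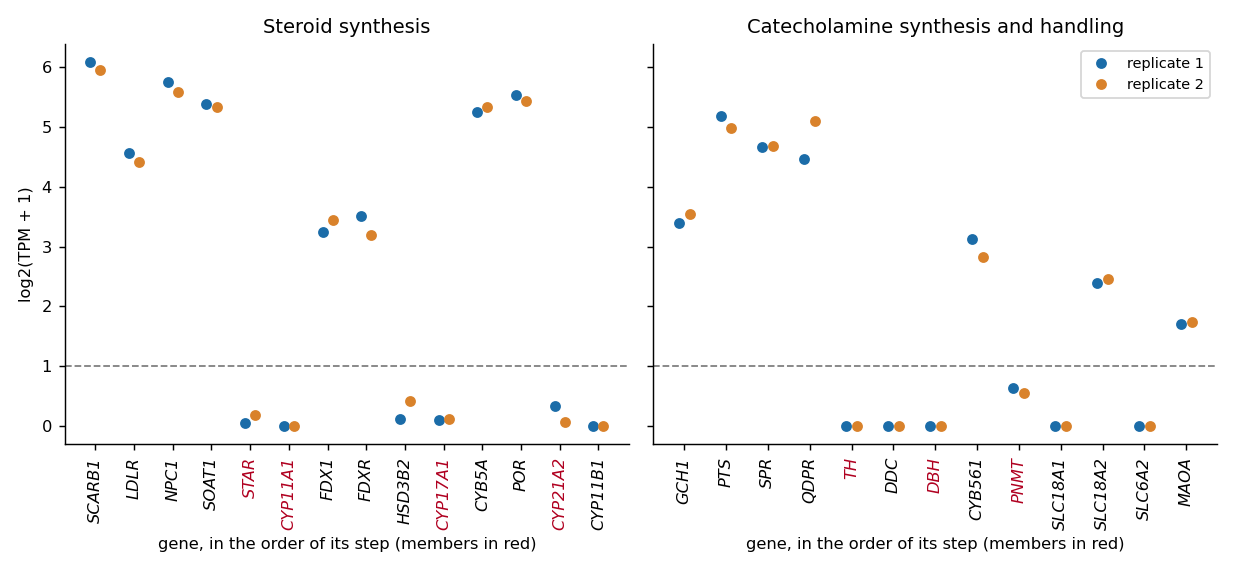
Levels of genes of steroid synthesis (left) and of catecholamine synthesis and handling (right) as log2(TPM + 1) in replicate 1 (blue) and replicate 2 (orange), with marker genes named in red and the detection threshold of 1 TPM dashed. The red genes lie below the line, as do HSD3B2, CYP11B1, DDC, SLC18A1 and SLC6A2, while cholesterol supply genes, redox partners and genes of the TH cofactor lie above it.

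Of 11 other genes more restricted to the cortex, 3 (27.3%) were detected, against 63.7% of protein-coding genes. In both replicates 5 had 0 counts, as did 15.8% of protein-coding genes. These 5 were CYP11B1 and CYP11B2, which complete cortisol and aldosterone, MC2R, the receptor for ACTH, NR0B1, a repressor partner of NR5A1, and HSD3B1. HSD3B2, the adrenal form of that dehydrogenase, had 1 count in each replicate, and SULT2A1, which sulfates adrenal androgens, had 3 and 8. For replicate 2 RSEM gave a posterior SD of 0.43 counts for HSD3B2 and also for HSD3B1. The assignment of the HSD3B2 count in that replicate was therefore not certain. The detected genes were AKR1B1, an aldose reductase that many tissues also express, with a TPM of 195.45 and 185.91, MGARP, a mitochondrial protein, with 7.02 and 8.08, and AGTR1, the angiotensin receptor, with 1.08 and 1.33. The list's median of the mean TPM was 0.205, against 6.5 over the protein-coding genes.

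Of regulators that take part in forming the cortex 8 of 14 (57.1%) were detected, near the 63.7% of protein-coding genes, and their median of 2.51 was below the protein-coding median of 6.5. NR2F2 had a TPM of 71.84 and 75.27, GATA6 31.27 and 30.53, GATA4 29.26 and 26.21, and WT1 10.0 and 10.49. These factors also act in the developing kidney, gonad, heart or mesenchyme. DLK1, which marks progenitor cells under the adrenal capsule, had 0 counts.

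On the chromaffin side 8 of 12 genes (66.7%) of catecholamine synthesis, storage and breakdown were detected, near the 63.7% of protein-coding genes, with a median of 5.66. GCH1, PTS and SPR, which make the tetrahydrobiopterin cofactor that TH needs, had a TPM of 9.57 and 10.62, of 35.22 and 30.78 and of 24.44 and 24.6. The breakdown enzyme MAOA had 2.27 and 2.33. DDC, which acts between TH and DBH, the chromaffin vesicle transporter SLC18A1 and the noradrenaline transporter SLC6A2 had 0 counts in both replicates. SLC18A2, the second vesicular monoamine transporter, was detected, with 121 and 122 counts and a TPM of 4.26 and 4.47.

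Dense core granule genes were mostly low, as CHGA was. Of 14, 3 (21.4%) were detected, against 63.7% of protein-coding genes. The median was 0.163, against 6.5 over the protein-coding genes. Detected were PCSK1N, an inhibitor of prohormone cleavage, with a TPM of 54.2 and 45.17, the carboxypeptidase CPE with 46.63 and 49.43, and SCG5. SCG5 lay at the threshold, with 7 and 8 counts and a TPM of 1.08 and 1.0. At an FPKM of 1 or at 10 counts only 2 of the 14 were detected. CHGB, the sister granin of CHGA, had 1 and 2 counts, and PENK, the enkephalin precursor that chromaffin cells store, had 0.

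Of transcription factors and receptors of the sympathoadrenal lineage 8 of 14 (57.1%) were detected, also near the 63.7% of protein-coding genes. GATA2 had a TPM of 31.93 and 34.12, HAND1 26.97 and 28.1, GATA3 18.73 and 12.38, ISL1 12.4 and 11.29 and HAND2 2.02 and 1.56. TFAP2B and SOX11 had 0 counts in both replicates, and PHOX2A, a homeodomain factor of the lineage, had 1 count in replicate 1 and 0 in replicate 2. The detected factors act in other lineages as well.

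**Figure D3:**
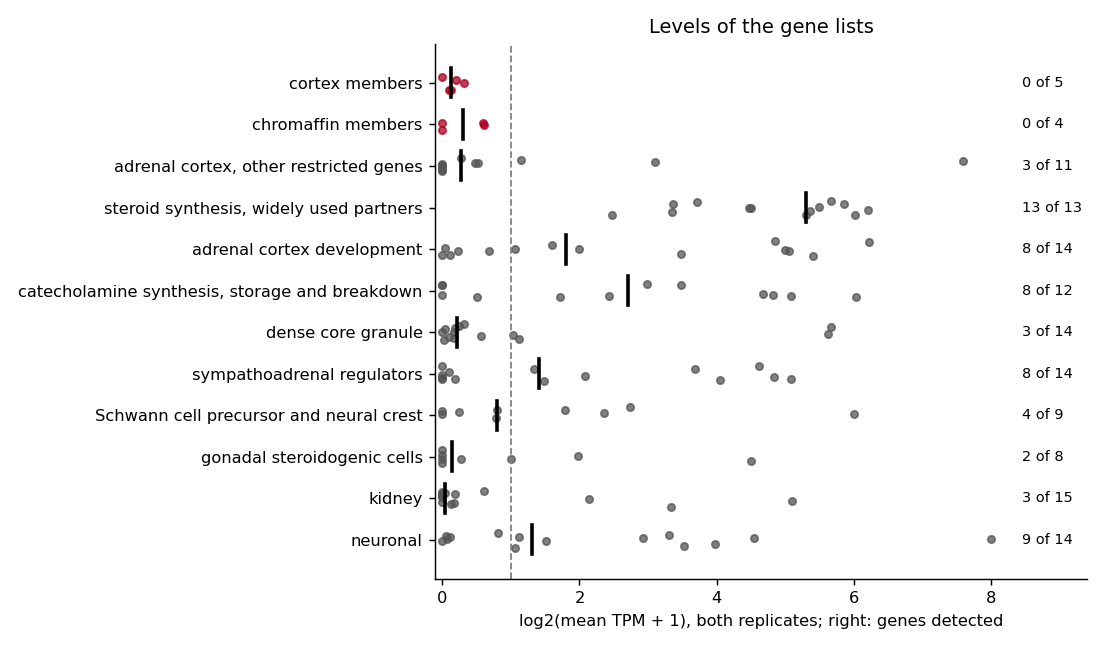
Levels of the gene lists as log2(mean TPM + 1), with 1 point per gene, the median as a black bar, the adrenal markers in red and the threshold of 1 TPM dashed. The numbers at the right count detected genes, from 0 of 5 and 0 of 4 for the markers to 13 of 13 for the widely used partners of steroid synthesis.

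Lists for other cell types that share these genes were counted in the same way. Of 8 gonadal genes 2 (25.0%) were detected, against 63.7% of protein-coding genes. They were AMH with a TPM of 22.42 and 20.73 and HSD17B1 with 2.34 and 3.59, while the gonadotropin receptors LHCGR and FSHR had 0 counts. The estimated counts of HSD17B1, 86.05 and 87.77, had a posterior SD of 8.46 and 9.41, so the assignment of its reads was not certain. Of 9 genes of Schwann cell precursors and neural crest 4 (44.4%) were detected, against 63.7% of protein-coding genes. These were TFAP2A with a TPM of 66.63 and 59.77, SOX9 with 5.59 and 5.7, FOXD3 with 4.01 and 4.2 and ERBB3 with 3.32 and 1.61, while SOX10 had 0.69 and 0.78. Of 14 neuronal genes matched by symbol 9 (64.3%) were detected, near the 63.7% of protein-coding genes. NEFL of this list matched no identifier by symbol and was not counted. UCHL1 was highest of the detected neuronal genes by mean TPM, with 250.77 and 255.52. INA had 21.82 and 22.97, ENO2 15.39 and 14.02, NEFM 9.93 and 11.09, SYP 9.51 and 8.28 and TUBB3 6.67 and 6.48. The estimated counts of TUBB3, 88.41 and 76.22, likewise had a posterior SD of 8.85 and 11.44. RBFOX3, GAP43 and SYN1 were detected nearer the threshold, with a mean TPM of 1.85, 1.17 and 1.08. Not detected were STMN2 with 0 counts in both replicates, SNAP25 and ELAVL4 with 0 and 1, DCX with 2 and 4 and MAP2 with 10 and 9. Of 15 kidney genes with a row, the labelled tissue, 3 were detected (SIX2, LRP2 and PAX2), against 63.7% of protein-coding genes. In both replicates 7 of the 15 had 0 counts, as did 15.8% of protein-coding genes. Among these 7 were UMOD and AQP2 of the mature tubule. Differences between lists were not tested.

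The tables also hold a posterior mean TPM, an estimate that RSEM averages over its sampling and that stays above 0 for genes without reads. By this measure 5 of the 9 markers reached 1 in both replicates, as did 74.2% of protein-coding genes. They included CYP11A1 at 1.65 and 1.71 and TH at 1.7 and 1.76, neither of which had a read. CYP21A2 had 2.54 and 2.47, CHGA 1.31 and 1.54 and PNMT 1.07 and 1.02. Of 3068 protein-coding genes with 0 counts in both replicates, 15.6% reached 1 in both. Their median posterior mean was 0.13 for genes with 1 transcript and 1.96 for genes with at least 10 transcripts. CYP11A1 has 12 transcripts in the files, TH 11 and CYP21A2 15, whereas DBH, at 0.22 and 0.23, has 2.

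**Figure D4:**
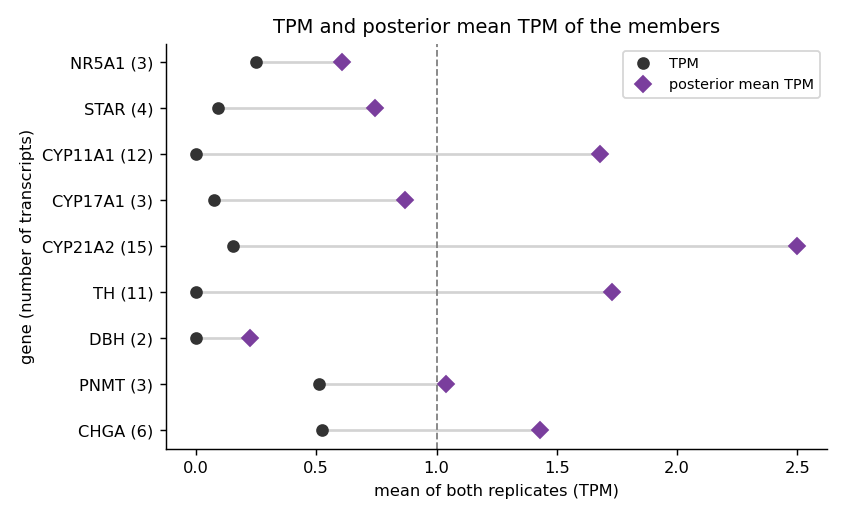
Mean TPM (black circles) and mean posterior mean TPM (purple diamonds) of each marker over both replicates, with the number of its transcripts in parentheses and the threshold of 1 TPM dashed. The widest gaps are those of CYP21A2, TH and CYP11A1, which have 15, 11 and 12 transcripts.

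The lower threshold of 0.1 TPM in both replicates was passed by 3 of the 9 markers, NR5A1, PNMT and CHGA, and by 74.1% of protein-coding genes. At a minimum of 10 estimated counts, at 5 TPM, at an FPKM of 1 and with TPM rescaled to protein-coding genes the count of detected markers was 0. The share of protein-coding genes that pass these rules was not computed. At 5 TPM the 0 was fixed in advance, because no marker passed 1 TPM.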

How the data were processed

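Sequencing of poly(A)+ RNA from HEK293T cells gave 2 replicates with reads of 50 nt. The submitters' processing notes name Trimmomatic 0.36, STAR 2.6.1c and RSEM 1.3.1 with GRCh37, while the study's methods name featureCounts; the columns of the tables are those of RSEM. Estimated counts (expected counts) were deposited by the authors and share ambiguous reads among genes. The deposited TPM values take transcript length into account and sum to equal totals in both libraries. FPKM values were deposited too, scaled by length and library. Scores deposited by the authors give the posterior SD of counts and TPM interval bounds. A table of pooled reads was not used.

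Symbols came from GENCODE release 44 on GRCh37 and matched 55501 of 57736 identifiers. Protein-coding genes held 70.7% and 68.5% of the TPM. At these depths 3 counts are 0.283 and 0.297 CPM, and a count's precision was given by an exact 95% Poisson interval. Counts were rounded for that interval and for the binomial test, which compared them with library sizes scaled by TMM in edgeR 4.0.16 (R 4.3.3) using scipy 1.17.1, and which was tested on simulated data. Stretches of 50 bases came from the 93.1% of the files' transcripts found in the annotation, and CYP21A2 was aligned with Biopython 1.88.

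The markers and the lists were chosen with earlier results of these data known. Named genes are the markers, the genes of the lists, and genes that overlap, adjoin or copy a marker; some genes of the lists are counted but not reported here by name. Alternatives were other detection thresholds and units, other normalizations and leaving out each replicate.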

Additional observations from a re-analysis of the deposited data

How the results depend on the processing

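With a TPM of at least 0.1 the number of detected markers moved from 0 to 3, of which 1 was a cortex and 2 were chromaffin genes. With the posterior mean TPM, an alternative chosen after seeing the data, it moved to 5, of which 2 were cortex and 3 chromaffin genes, and some of these had no reads. It stayed at 0 at 5 TPM, where it could not rise, at 1 FPKM, 10 counts, with TPM rescaled to protein-coding genes and without either replicate. The median level of the markers, 0.09 TPM, was 0.065 as FPKM, 0.13 with TPM rescaled to protein-coding genes, 1.04 as posterior mean and 0.07 to 0.08 without a replicate. The number of genes that differed between the libraries, 696, fell to 71 when only genes with whole counts entered. Fewer genes were then tested, and as their number was not recorded, the 71 cannot be read as a share. Of the values for single markers and other lists, 98 moved by no more than the spread or the limit set for a count and 27 by more. With 2 replicates, leaving 1 out cannot move a marker's mean by more than their SD. A marker at 0 also stays at 0 in FPKM and in rescaled TPM. Such values were bound to fall among the 98, so this number does not measure robustness. No paired analysis was possible because there was only 1 group. Depth limits the markers to statements of at most a few counts. In each replicate taken alone, PNMT and CHGA could not be told from the threshold of 1 TPM by counting error.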
